A study of Mus musculus with 9 samples.

Results

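Transcripts of the dystrophin and sarcoglycan complex were followed in a mouse mammary tumour cell line with and without Sox10. The 8 genes described, of 24594 in the deposited count table, were Dag1, Sgcb, Sgcd, Sgce, Sspn, Dmd, Utrn and Dtna, matched to the table's rows by Entrez gene ID. These genes were selected on earlier results of the same libraries, so their levels and differences are a description. Their calls in the fit across all genes are given only beside the share of all genes called, and nothing is supported with them. BG2 cells are epithelial cells isolated from an endpoint mammary tumour of the MMTV-NeuIresCre (MMTV-NIC) strain, in which the mouse mammary tumour virus promoter drives the oncogene Neu together with Cre in mammary epithelium, and all 3 groups carry that transgene. The control was the line with wild-type genotype as a bulk population. Its library names hold NTC, which the labels do not spell out, so whether it was handled with a control guide is not known here. Clone 1 and clone 2 were each a single clone grown out of a population edited with CRISPR guides against the open reading frame of Sox10 in exon 3. Each group had 3 technical replicates of stranded, polyA-enriched RNA. The labels do not say at which step the replicates parted, so every error below measures the spread between libraries of 1 population, and an effect of Sox10 loss cannot be told apart from other differences between a bulk population and 1 clone.

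The complex links the actin cytoskeleton to the extracellular matrix across the plasma membrane and is best known from skeletal muscle, where loss of its parts causes muscular dystrophies. Dystroglycan is its matrix receptor: the extracellular alpha subunit binds laminins and other ligands through a sugar chain, and the transmembrane beta subunit binds dystrophin or its relative utrophin inside the cell, which hold actin. Sarcoglycans and sarcospan form a subcomplex beside dystroglycan, and dystrobrevins and syntrophins bind dystrophin or utrophin from the cytoplasm. In epithelia, dystroglycan contacts the laminins of the basement membrane, and utrophin commonly stands in the place of dystrophin.

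The libraries held 65805296 to 83282841 counts. A floor of 3 counts over the libraries of a group corresponded to 0.0134 CPM for the control, 0.0142 for clone 1 and 0.0127 for clone 2, where CPM is the count relative to the TMM-scaled library size. Sox10 itself, the targeted transcription factor, had 16660 to 26038 counts per library in the control and 0 to 6 in the clones. Libraries numbered 1 stood somewhat apart in every group. Their mean absolute log2 difference from the other libraries of the group was 0.217 to 0.274 over the genes tested, beside 0.182 to 0.186 between libraries 2 and 3. With these libraries left out of every group, every member called stayed called in its contrast, and Dag1 in clone 1 was called as well. The share of all genes called in that fit is not given here, so nothing is read from these calls. A gene was called where the edgeR quasi-likelihood test gave a Benjamini-Hochberg adjusted p under 0.05 over the 13928 genes tested. The background of calls was high: 76.5% of genes were called in clone 1 against control, 74.4% in clone 2 against control and 57.6% between the clones. Both clones are compared with the same control libraries.

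Promoters are printed for Sgcd, Dmd and Sspn, the members with the largest mean log2 difference of the clones from control. In clone 1 alone Dtna differed more than Sspn. A promoter of Dag1, the most abundant member, is printed beside them, all from the RefSeq promoter table on GRCm38.p6. Each runs 5′ to 3′ on the gene's strand from 250 bases before an annotated start to 50 bases after it. The table held 9 such promoters for 6 of the 8 members. Dmd is shown at its start of the long muscle-type form and at the start of a short form far downstream in the gene. Sspn and Dag1 each have a second annotated start, whose promoters are described but not printed. Capitals mark matches, on either strand, to motifs searched by their letters: ACAAAG and ACAATG (bound by Sox proteins), CACCTG (an E box), TGANTCA (AP-1), GGAATG (TEAD) and the CArG box (serum response factor). No printed match overlapped another.
Sgcd, chr11:47379276-47379575, minus strand: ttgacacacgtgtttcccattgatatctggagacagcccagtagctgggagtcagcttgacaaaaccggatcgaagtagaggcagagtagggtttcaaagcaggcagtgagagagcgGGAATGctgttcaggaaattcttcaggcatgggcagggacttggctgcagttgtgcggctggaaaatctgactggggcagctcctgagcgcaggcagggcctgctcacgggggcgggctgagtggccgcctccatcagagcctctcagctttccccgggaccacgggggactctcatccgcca
Dmd, long form, chrX:82948620-82948919, plus strand: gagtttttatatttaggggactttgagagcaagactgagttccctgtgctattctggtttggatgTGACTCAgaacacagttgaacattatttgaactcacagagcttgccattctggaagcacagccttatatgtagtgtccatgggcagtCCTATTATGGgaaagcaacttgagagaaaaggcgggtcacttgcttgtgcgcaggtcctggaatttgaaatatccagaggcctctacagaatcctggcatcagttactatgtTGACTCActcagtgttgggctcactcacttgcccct
Dmd, short form, chrX:85048045-85048344, plus strand: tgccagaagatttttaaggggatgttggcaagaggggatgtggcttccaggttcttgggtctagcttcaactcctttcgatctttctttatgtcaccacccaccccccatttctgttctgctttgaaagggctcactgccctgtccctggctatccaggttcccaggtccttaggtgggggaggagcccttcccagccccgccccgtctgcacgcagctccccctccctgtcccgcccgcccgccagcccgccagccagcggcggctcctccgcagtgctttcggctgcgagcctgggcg
Sspn, chr6:145931623-145931922, plus strand: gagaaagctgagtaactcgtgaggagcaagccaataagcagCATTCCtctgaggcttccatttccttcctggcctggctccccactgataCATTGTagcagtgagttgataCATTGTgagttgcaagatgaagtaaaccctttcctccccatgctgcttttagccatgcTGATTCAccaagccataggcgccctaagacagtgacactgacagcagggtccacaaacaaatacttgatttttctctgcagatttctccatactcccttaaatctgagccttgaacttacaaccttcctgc
Dag1, chr9:108263909-108264208, minus strand: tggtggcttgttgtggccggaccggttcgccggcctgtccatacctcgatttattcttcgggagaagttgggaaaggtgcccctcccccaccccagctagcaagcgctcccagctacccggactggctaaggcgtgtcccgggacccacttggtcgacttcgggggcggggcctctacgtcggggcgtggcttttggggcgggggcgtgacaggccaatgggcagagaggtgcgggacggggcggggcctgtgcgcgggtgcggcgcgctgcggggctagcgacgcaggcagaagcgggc

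The Sgcd promoter held 1 GGAATG match and 12 CpG sites, beside a median of 7 CpG sites in the table's 32544 distinct promoters. Its start lies inside the annotated span of the gene, so this window need not be the start in use. The long-form promoter of Dmd had 2 CpG sites, both its TGANTCA matches and a CArG box, whereas the short-form promoter had 14 CpG sites and no match to any motif searched. In the printed Sspn promoter there were 2 CpG sites, 2 ACAATG matches, 1 TGANTCA match and 1 GGAATG match. The promoter of the other Sspn start had 8 CpG sites and 1 GGAATG match, and neither ACAATG nor TGANTCA. The printed Dag1 promoter was 69.7% G and C with 30 CpG sites, the other had 47 CpG sites, and neither held a match. Such matches also arise by the letters alone: 18.7% of all promoters of this length held ACAAAG, 12.4% ACAATG, 20.3% CACCTG, 7.79% TGANTCA, 14.6% GGAATG and 1.64% a CArG box. The matches describe the letters only, and no binding was measured here.

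Most members differed in level between the groups, while the matrix receptor gene Dag1 and the utrophin gene Utrn differed less, with log2 differences between -0.12 and 0.40 from control. Sgcd was near 0 counts in the control and plain in both clones, and Dmd had the reverse pattern. Sgcb and Sspn were lower in both clones, and Dtna was lower in clone 1, with clone 2 overlapping the control. Of the 8 members 7 were tested, since Sgce had no counts. Sgcd passed the filter on low counts only through the clones, and Dmd only through the control. In clone 1 against control 6 of the 7 were called, 2 higher (background 37.9%) and 4 lower (background 38.6%). In clone 2 against control 6 were called, 3 higher (background 37.3%) and 3 lower (background 37.1%). Between the clones 6 were called, 4 higher in clone 2 (background 30.1%) and 2 lower (background 27.5%). These contrasts were in view when the members were chosen, so nothing is read from the counts. The members' median log2 difference was -0.98 in clone 1 and -0.05 in clone 2, beside 0.00 and -0.00 over all genes tested.

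**Figure D1:**
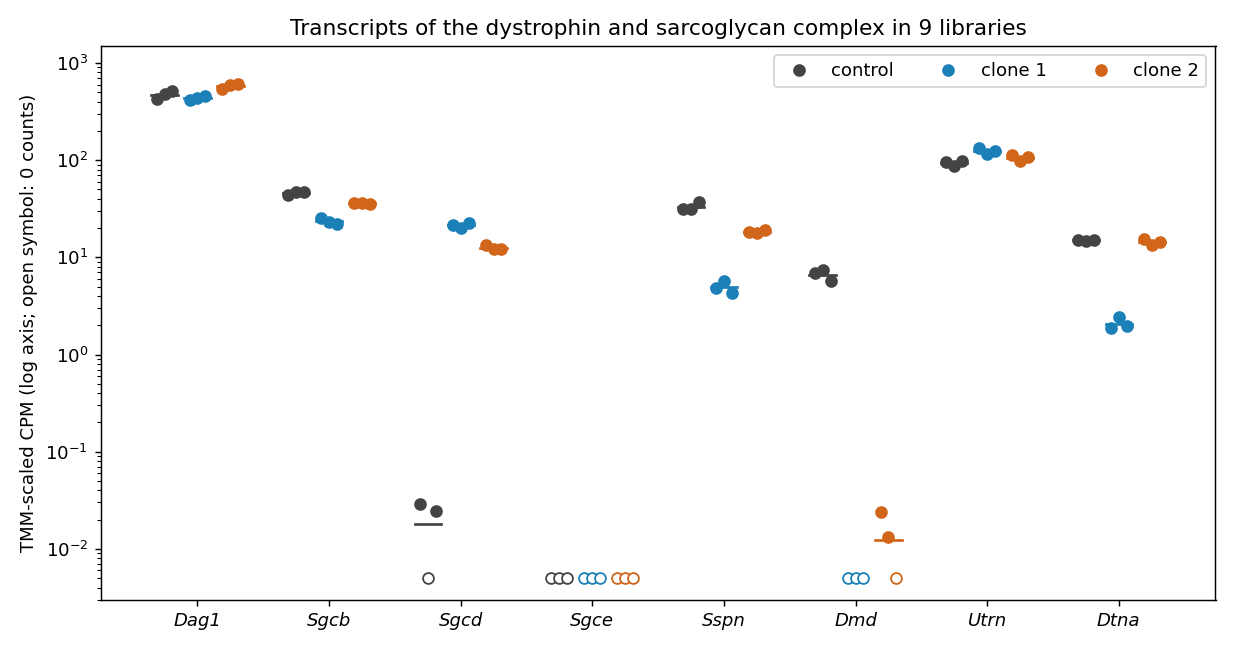
TMM-scaled CPM (log axis) of the 8 members in each of the 9 libraries, with a line at the group mean and open symbols for libraries with 0 counts. Sgcd lies at or below 0.0289 CPM in the control and above 12 CPM in every clone library, Dmd has the reverse arrangement, and Dag1 stays between 414.8 and 608.0 CPM throughout.

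Dag1 (Entrez ID 13138; GRCm38 chr9:108204861-108263977, minus strand) encodes dystroglycan, both subunits coming from one precursor. The control libraries held 426.6, 479.2 and 510.2 CPM. Clone 1 held 414.8, 433.7 and 454.1 CPM, and clone 2 held 538.7, 588.6 and 608.0 CPM. Clone 1 overlapped the control, whereas every clone 2 library lay above all control and clone 1 libraries. Mean levels in CPM were 472 ± 42.3 for the control, 434 ± 19.7 for clone 1 and 578 ± 35.7 for clone 2 (SD, n = 3 each). The log2 difference from control was -0.12 ± 0.07 (SE) in clone 1, which was not called, and 0.29 ± 0.07 in clone 2, which was called. Without the libraries numbered 1 the clone 1 difference was -0.16 and was called. The median log2 difference of all tested genes on chromosome 9 was 0.09 in clone 1 and 0.43 in clone 2, so Dag1 in clone 2 lay below the median of its chromosome, and what part of the difference the chromosome carries was not tested. Its nearest tested neighbours were higher in both clones: Bsn, the gene of the synaptic scaffold bassoon, by 1.26 and 3.28 on the log2 scale (edgeR adjusted p 1.48e-06 and 3.66e-10), and Nicn1 by 0.27 and 0.87 (edgeR adjusted p 0.00471 and 4.38e-07). In a bulk RNA measurement, fewer cells with a transcript and less of it per cell cannot be told apart.

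Of the sarcoglycans, Sgcd (Entrez ID 24052; chr11:46971077-47989451, minus strand) encodes delta-sarcoglycan, a core subunit together with beta-sarcoglycan. It was at the edge of detection in the control, with 2, 0 and 2 counts. Clone 1 had 1424, 1529 and 1577 counts and clone 2 had 1130, 918 and 952. Mean CPM was 0.0179 ± 0.0156 for the control, 21.4 ± 1.28 for clone 1 and 12.6 ± 0.812 for clone 2 (SD, n = 3 each). No group overlapped another, and every clone 1 library lay above every clone 2 library. Against the 4 control counts, the level was 1198-fold higher in clone 1 (95% counting interval 467 to 4397) and 709-fold higher in clone 2 (276.5 to 2603). Leaving out 1 library at a time gave 802.3 to 1655-fold and 474.8 to 979.7-fold. Clone 2 was lower than clone 1 by a log2 difference of -0.76 ± 0.11 (SE), which was called. Of its nearest tested neighbours, Timd2 had no count in the control and 0.00478 and 0.294 CPM in the clones, called in clone 2 (edgeR adjusted p 0.328 and 9.7e-05). Rack1, a ribosomal scaffold gene on the other side, had log2 differences of -0.40 and -0.49 (edgeR adjusted p 0.000262 and 5.85e-05).

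Sgcb (Entrez ID 24051; chr5:73632749-73647737, minus strand) encodes beta-sarcoglycan, a partner of delta-sarcoglycan in assembly. It moved the opposite way to Sgcd in both clones, and by far less. Control libraries lay between 44.1 and 47.5 CPM, clone 2 libraries between 35.6 and 36.2 CPM and clone 1 libraries between 21.9 and 25.6 CPM. The 3 groups were fully separate, in the order control, clone 2, clone 1. The means were 46.1 ± 1.79, 36.0 ± 0.330 and 23.4 ± 1.89 CPM in that order (SD, n = 3 each). Relative to control, the log2 difference was -0.98 ± 0.07 (SE) in clone 1 and -0.36 ± 0.07 in clone 2, both called, and clone 2 exceeded clone 1 by 0.62 ± 0.07. The nearest tested genes were also lower in both clones. Lrrc66, at 0.253 CPM in the control, had log2 differences of -3.09 and -2.70 (edgeR adjusted p 0.0124 and 0.0169), and the deubiquitinase gene Usp46 had -0.58 and -0.19 (edgeR adjusted p 1.72e-06 and 0.00889).

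Sgce (Entrez ID 20392; chr6:4674350-4747204, minus strand) encodes epsilon-sarcoglycan, the relative of alpha-sarcoglycan in tissues other than striated muscle, and is known as a gene expressed from the paternal allele. It had 0 counts in all 9 libraries, which over their 673626814 counts allows up to 0.00445 CPM. Peg10, a paternally expressed gene whose span starts 102 bases away, also had 0 counts in all 9. The nearest tested genes were not silent. Casd1, a sialic acid O-acetyltransferase gene on one side, had 19.98 CPM as a control mean, against 41.7 for clone 1 and 28.9 for clone 2. Pon3, a paraoxonase gene on the other side, went from 0.281 CPM to 30.8 and 22.1 CPM, log2 differences of 6.77 and 6.29 (edgeR adjusted p 3.35e-12 and 5.47e-12). Absence of Sgce was thus shared by all groups, the control included. Of the other sarcoglycans, Sgcz also had 0 counts in every library, and Sgca, the striated muscle alpha subunit, had 36, 9 and 22 counts summed over control, clone 1 and clone 2, too few to be tested.

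Sspn (Entrez ID 16651; chr6:145931873-145965225, plus strand) encodes sarcospan, a tetraspanin-like protein that binds the sarcoglycans and stabilises the complex. The control held 31.6, 31.2 and 36.7 CPM, clone 1 held 4.87, 5.66 and 4.26 CPM, and clone 2 held 18.3, 17.8 and 18.95 CPM. The groups were fully separate, with clone 2 between the others. Means were 33.2 ± 3.07, 4.93 ± 0.702 and 18.3 ± 0.602 CPM (SD, n = 3 each). Clone 1 differed from control by a log2 value of -2.75 ± 0.11 (SE) and clone 2 by -0.86 ± 0.10, a ratio of 6.73 and 1.81 in favour of the control. Clone 2 exceeded clone 1 by 1.89 ± 0.11. Its nearest tested neighbours differed from each other: the transcription factor gene Bhlhe41 fell, with log2 differences of -1.53 and -1.59 (edgeR adjusted p 1.38e-10 and 1.03e-10), and Itpr2, an inositol trisphosphate receptor gene, rose, with 2.62 and 1.47 (edgeR adjusted p 2.36e-10 and 2.88e-08). An antisense transcript, Sspnos, shares 69 exon bases (1.38%) with Sspn. No source used here gives the strand setting of the counting, so their reads may not be fully separate.

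Dmd (Entrez ID 13405; chrX:82814664-85205050, plus strand) encodes dystrophin and is among the longest genes of the genome, spanning 2390 kb. The control libraries had 477, 544 and 461 counts, or 6.89, 7.35 and 5.70 CPM. Clone 1 had 0 counts in all 3 libraries, and clone 2 had 2, 1 and 0. The control was thus fully apart from both clones, and the clones could not be separated from each other at this depth. The control mean was 6.65 ± 0.855 CPM and the clone 2 mean 0.0124 ± 0.0120 CPM (SD, n = 3 each). Against the floor of 3 counts over the group, clone 1 was lower by at least 467-fold, and against the 3 counts present clone 2 was 523-fold lower (95% counting interval 178.5 to 2538). These rest on few counts: without clone 1 replicate 2 the bound was 299.2-fold, and without clone 2 replicate 1 the ratio in clone 2 was 1017-fold, against a single count. The table has 1 value per gene, so the long and short forms that start at the printed promoters were not separated in the control. In the clones the gene total was at or under the floor, which covers every form that was counted.

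The genes flanking Dmd differed from each other. Tmem47, a transmembrane protein gene 1717 kb away at lower coordinates, had a control mean of 8.69 CPM and 0 counts in all 6 clone libraries. Tab3, a kinase adaptor gene 368.8 kb away on the other side, had 16.4, 16.6 and 14.2 CPM and was not called in either clone (edgeR adjusted p 0.917 and 0.206). Loss was therefore shared with the neighbour on one side and not with that on the other. By distance over the 9 libraries on a log2(CPM + 0.1) scale, the genes whose levels were most like those of Dmd were Ptpn18 (distance 0.449), Dgkk (0.460) and Pir (0.501). Their control levels were 6.64, 7.31 and 6.72 CPM, and none exceeded 0.00800 CPM in a clone.

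Utrn (Entrez ID 22288; chr10:12382187-12869888, minus strand) encodes utrophin, the widely expressed relative of dystrophin that binds the same partners. It was present in every group, also where Dmd was at or near 0 counts. The control held 95.3, 87.2 and 98.5 CPM, clone 1 held 132.6, 115.0 and 124.6 CPM, and clone 2 held 112.6, 97.6 and 108.0 CPM. All clone 1 libraries lay above all control libraries, whereas clone 2 overlapped the control. Means were 93.7 ± 5.83, 124 ± 8.83 and 106 ± 7.67 CPM (SD, n = 3 each), log2 differences of 0.40 ± 0.07 (SE) in clone 1 and 0.18 ± 0.07 in clone 2. The call in clone 2 was lost with DESeq2's size factors (0.16), with library totals alone (0.18) and in DESeq2 (0.16). It was also lost without control replicate 1 (0.17), control replicate 2 (0.12), clone 1 replicate 3 (0.18), clone 2 replicate 1 (0.14) or clone 2 replicate 3 (0.17). Between the clones the log2 difference was -0.23 ± 0.07, a call lost without clone 1 replicate 1 (-0.18) or clone 1 replicate 3 (-0.22). The median of all tested genes on chromosome 10 was 0.41 in clone 1 and 0.39 in clone 2, at or above the values of Utrn, and the part of the chromosome in the difference was not tested. The nearest tested gene, B230208H11Rik, 46.8 kb away, was higher in both clones, by 1.02 and 1.29 on the log2 scale (edgeR adjusted p 2.36e-05 and 2.91e-06). Fbxo30, an F-box protein gene 1076 kb away on the other side, had 1.00 and 0.02 (edgeR adjusted p 0.000471 and 0.932).

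Dtna (Entrez ID 13527; chr18:23310006-23659719, plus strand) encodes alpha-dystrobrevin, a cytoplasmic protein that binds dystrophin and utrophin and anchors syntrophins. The control held 15.2, 14.7 and 15.0 CPM, clone 1 held 1.88, 2.41 and 1.95 CPM, and clone 2 held 15.3, 13.3 and 14.5 CPM. Clone 2 overlapped the control and clone 1 lay far below both. The means were 14.9 ± 0.261, 2.08 ± 0.291 and 14.4 ± 1.05 CPM (SD, n = 3 each). The log2 difference was -2.84 ± 0.11 (SE) in clone 1, -0.05 ± 0.10 in clone 2, which was not called, and 2.78 ± 0.11 between clone 2 and clone 1. Mapre2, a microtubule-binding protein gene on the higher side, was higher in both clones, by 1.19 and 1.38 on the log2 scale (edgeR adjusted p 1.84e-09 and 5.47e-10). On the other side, at a like distance, Gm7788 had 0.17 and 0.45 and was not called (edgeR adjusted p 0.687 and 0.274). An annotated antisense gene, Gm47898, shares 90 exon bases (0.532%) with Dtna.

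**Figure D2:**
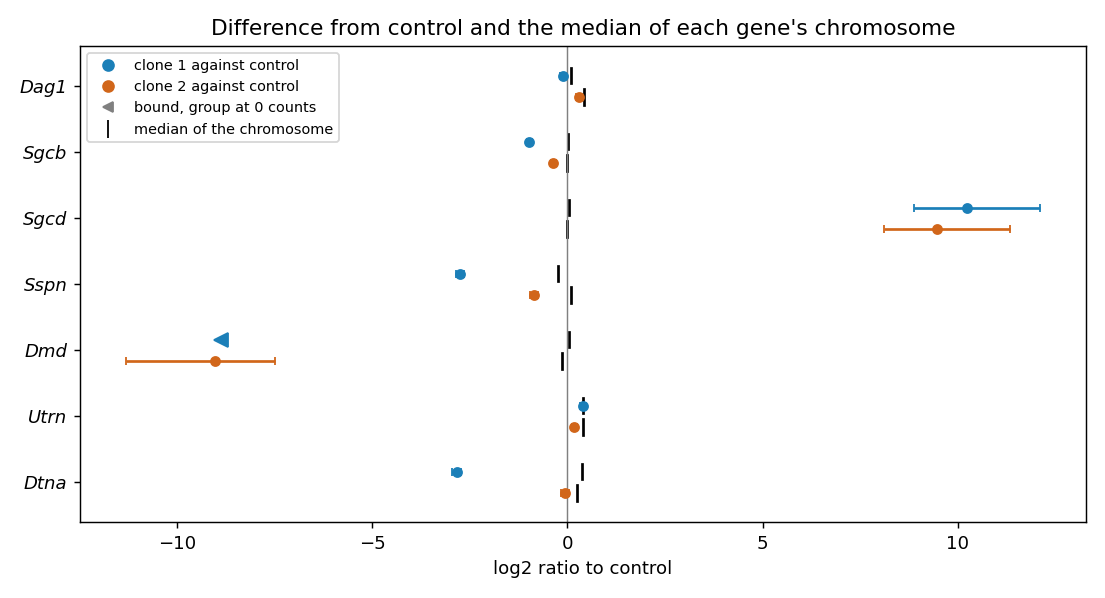
Log2 ratio of each clone to control for the 7 members with counts, with bars of 1 SE, or of the 95% counting interval for Sgcd and for Dmd in clone 2. The arrow is a bound for Dmd in clone 1, and black ticks are the median of all tested genes on the gene's chromosome. Dag1 and Utrn lie within 0.5 of 0 near the ticks, while Sgcd and Dmd lie beyond 8 in opposite directions.

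Divided by the length of the longest coding transcript, the members' levels can be ordered within a group. In the control the order in CPM per kb was Dag1 (83.4), Sgcb (12.2), Utrn (7.57), Sspn (7.35), Dtna (2.37), Dmd (0.446) and Sgcd (0.00729). Only Utrn and Sspn, neighbours in that order, overlapped over the libraries. In clone 1 the order was Dag1 (76.7), Utrn (10.02), Sgcd (8.74), Sgcb (6.19), Sspn (1.09) and Dtna (0.331), with Dmd at 0 counts. In clone 2 it was Dag1 (102.2), Sgcb (9.498), Utrn (8.57), Sgcd (5.15), Sspn (4.06), Dtna (2.28) and Dmd (0.000833). No neighbours overlapped in either clone. Utrn exceeded Dmd per kb in every group, also in the control, where both were detected. The place of Sgcd depends on the length used. Over the union of all annotated exons it had 2.59 CPM per kb in clone 1, below Sgcb at 5.79, and 1.53 in clone 2, below Sspn at 3.67, and with that length Sspn stood above Utrn in the control. Dmd stood between Dtna and Sgcd in the control with both lengths, and its place with the length of a shorter form was not computed. Its coding transcripts range from 1858 to 14910 bases, and they were not separated here.

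**Figure D3:**
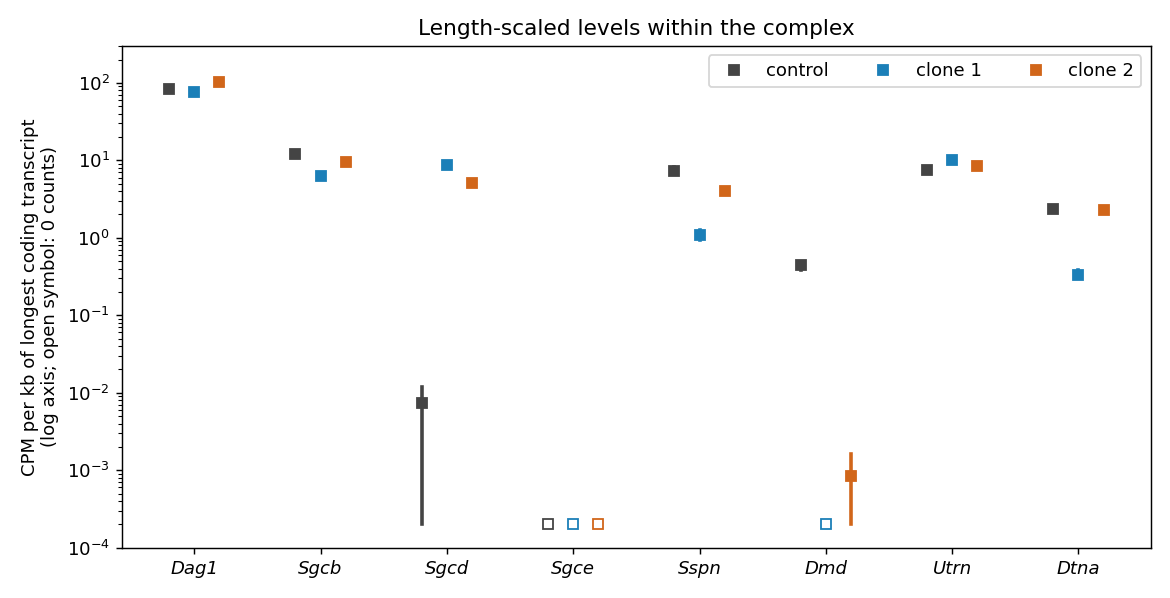
CPM per kb of the longest coding transcript (log axis) for the 8 members in the 3 groups, with squares at the mean, bars from the lowest to the highest library and open squares for groups with 0 counts; bars that reach 0 end at the height of the open squares. Dag1 is highest in each group, and Utrn lies between 7.57 and 10.02 in all of them.

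Genes that work with the complex were followed in 6 lists of 60 genes that are not members, also drawn up with earlier results known. Of these 48 could be tested, 7 had 0 counts in all libraries and 5 had too few counts. In clone 1 against control 43 were called, 23 higher and 20 lower. In clone 2 against control 40 were called, 23 higher and 17 lower. Called in the same direction in both clones were 18 higher and 16 lower genes, and B3galnt2, a glycosyltransferase, was called in opposite directions. Single contrasts stand beside backgrounds of 76.5% and 74.4% called. Over all genes tested, 28.7% were higher in both clones, 29.4% were lower in both and 4.79% were called in opposite directions, and nothing particular to the lists is read from these counts.

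Of the dystrophin relatives, the other dystrobrevin and the syntrophins, 6 of 8 were tested, and 4 were lower and 1 higher in both clones (background 29.4% and 28.7%). Their median log2 difference was -1.54 in clone 1 and -0.70 in clone 2. Sntb1, the beta-1 syntrophin, had 2.91 CPM in the control and 0 counts in clone 1, at least 207-fold lower, with 1 count in clone 2. Its paralog Sntb2 moved the opposite way, from 46.4 ± 1.97 CPM to 126 ± 1.88 and 86.5 ± 4.47 (SD, n = 3 each), by log2 values of 1.44 and 0.90 (edgeR adjusted p 5.85e-10 and 3.47e-08). Dtnb, the beta-dystrobrevin gene, fell from 153 CPM to 53.8 and 78.8 CPM (edgeR adjusted p 5.12e-10 and 2.41e-08). Drp2, a dystrophin-related protein known from Schwann cells, went from 1.30 CPM to 0.438 and 0.823 CPM (edgeR adjusted p 3.47e-05 and 0.00965). Sntg2, the gamma-2 syntrophin, had no count in the control, 1 count in clone 1 and a mean of 0.229 CPM in clone 2, at least 17.0-fold higher there than in the control. Sntg1 and Dytn had 0 counts throughout.

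All 18 genes for the sugar chain of alpha-dystroglycan were tested. In both clones 7 rose and 5 fell (background 28.7% and 29.4%), and their median log2 difference was 0.22 in clone 1 and 0.21 in clone 2. The widest change was in Large2, an enzyme that extends the laminin-binding repeat. It fell from 51.5 ± 2.80 CPM to 0.0369 ± 0.0194 and 0.0496 ± 0.0304 (SD, n = 3 each; edgeR adjusted p 2.37e-12 and 2.13e-12). This was 1367-fold lower in clone 1 (95% counting interval 693.5 to 3167). Pomgnt1, which builds the first mannose-linked branch, fell from 99.95 to 42.5 and 50.02 CPM (edgeR adjusted p 1.78e-08 and 1.12e-07). Dolk, the dolichol kinase that serves the mannose donor, rose from 24.9 to 45.5 and 53.5 CPM (edgeR adjusted p 1.43e-06 and 1.87e-07).

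Among the 12 ligand genes 7 were tested, of which 3 rose and 3 fell in both clones (background 28.7% and 29.4%). Agrn, the basement membrane proteoglycan agrin, fell from 669 ± 26.7 CPM to 59.7 ± 2.30 and 57.0 ± 4.56 CPM (SD, n = 3 each; edgeR adjusted p 3.06e-12 and 2.66e-12). Lama4, the laminin alpha-4 chain, fell from 65.6 CPM to 0.151 and 0.462 CPM (edgeR adjusted p 5.45e-11 and 7.98e-11). Perlecan, encoded by Hspg2, moved the other way, from 6.90 ± 1.35 to 146 ± 9.89 and 132 ± 19.2 CPM (SD, n = 3 each; edgeR adjusted p 2.3e-10 and 2.98e-10). Bgn, the proteoglycan biglycan, rose from 1.32 to 7.06 and 10.4 CPM (edgeR adjusted p 2.84e-08 and 4.84e-09). Lama5, the most abundant laminin alpha gene of the list, fell from 846 to 568 and 668 CPM (edgeR adjusted p 0.000123 and 0.00483). Some matrix partners of the receptor were thus higher and others lower in the clones, beside the small differences of Dag1 itself.

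Among 16 cytoplasmic partner genes 14 were tested, and 6 rose and 3 fell in both clones (background 28.7% and 29.4%). Ank2, ankyrin-B, which helps to place dystrophin at the membrane, rose from 0.485 to 14.1 and 16.4 CPM (edgeR adjusted p 1.52e-11 and 1.06e-11). Cav1, caveolin-1, rose from 65.8 to 323 and 285 CPM (edgeR adjusted p 1.16e-11 and 2.15e-11). The muscle caveolin gene Cav3 had 0 counts in the control and in clone 2 and 0.272 CPM in clone 1, at least 20.4-fold higher there. Krt8, the epithelial keratin 8, fell from 2393 to 666 and 787 CPM (edgeR adjusted p 1.59e-09 and 5.24e-09). Of the 3 proteases that process dystroglycan, Mmp2 rose from 0.282 to 2.56 and 1.19 CPM (edgeR adjusted p 1.76e-07 and 9.56e-06) and Furin fell from 384 to 329 and 209 CPM (edgeR adjusted p 0.00457 and 8.05e-08). Mmp9 went from 1.68 to 0.529 CPM in clone 1 (edgeR adjusted p 7.74e-05) and was 1.31 CPM in clone 2, not called (0.17).

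**Figure D4:**
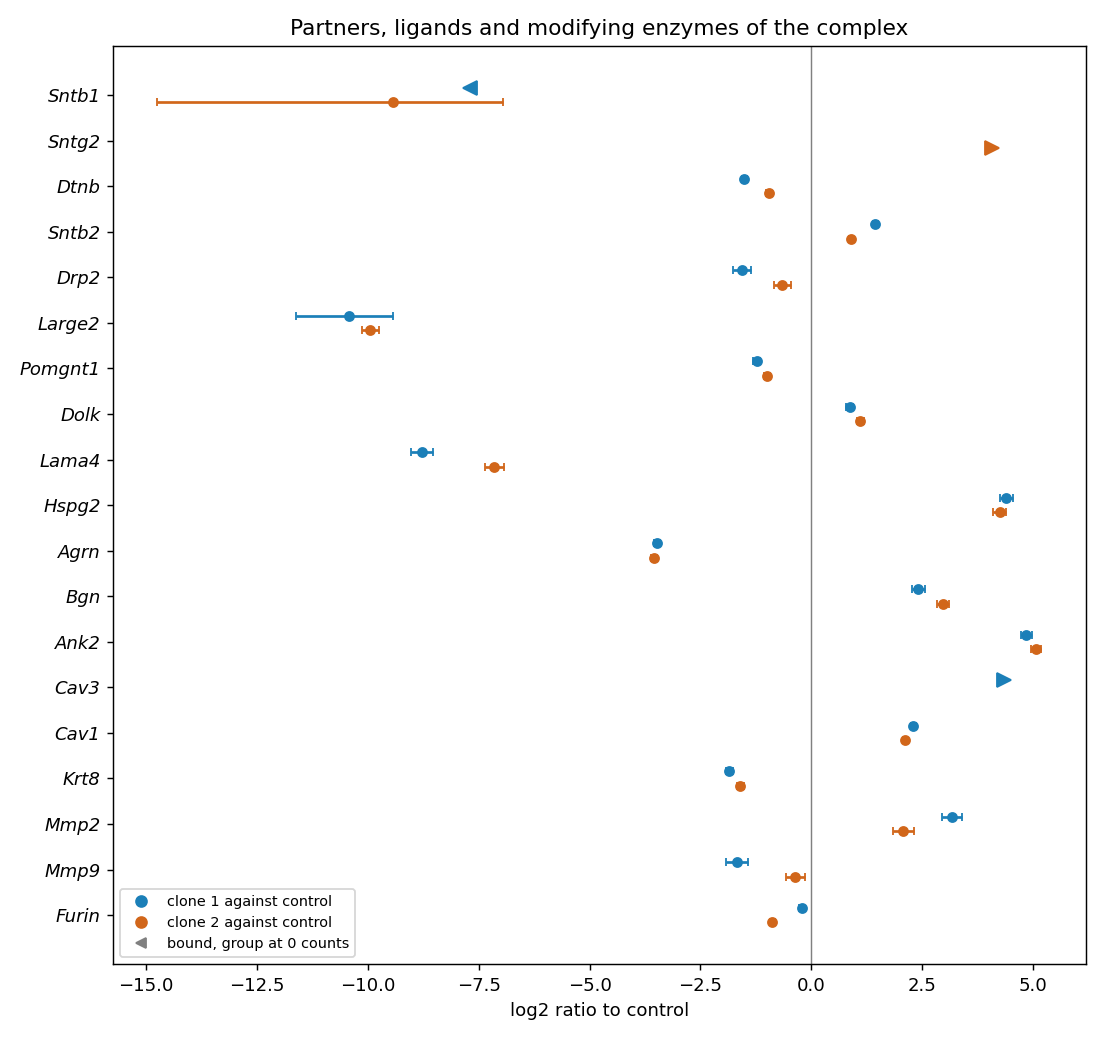
Log2 ratio of each clone to control for named partners, ligands and modifying enzymes, with bars of 1 SE (95% counting interval where a group had 1 to 9 counts) and arrows for bounds where a group had 0 counts. Sntb1, Large2 and Lama4 lie beyond -7, Hspg2 and Ank2 beyond 4, in both clones.

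Between the clones 33 of the 48 pathway genes were called, 22 higher and 11 lower in clone 2, beside 57.6% of all genes. The members with the widest difference between clones were Dtna and Sspn, both higher in clone 2. Their ratio of clone 2 to clone 1 was 6.91 for Dtna and 3.72 for Sspn. For Sgcb it was 1.53 and for Dag1 1.33, while for Utrn it was 0.855 and for Sgcd 0.589. Levels most like those of Sspn over the 9 libraries were found for Aig1 (distance 0.743), Acsbg1 (0.753) and Myzap (0.831). For Sgcd they were Arsj (1.43), Aspg (1.52) and D6Ertd527e (1.94), each near 0.10 CPM in the control, with 18.4 to 21.6 CPM in clone 1 and 7.72 to 12.1 CPM in clone 2.

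Markers of cell types in which the complex is well known moved with the groups as follows, beside the 28.7% of all genes tested that were higher and the 29.4% that were lower in both clones. The 12 skeletal muscle markers summed, over the libraries of control, clone 1 and clone 2 in turn, to 2.46 to 3.38, 1.36 to 1.84 and 3.82 to 3.91 CPM. Of these 4 were tested, with 1 higher in both clones (Des), and the muscle regulators Myod1 and Myog were at 0 counts in every library. Another regulator, Myf5, had 0 counts in the control and in clone 2 and 67 counts in clone 1, at least 23.6-fold above the control. In clone 1 against control 2 of the 4 tested were called higher and 1 lower (background 37.9% and 38.6%). Mylpf, at 1.89 to 2.89 CPM in the control, had 0.659 to 0.910 CPM in clone 1 and 1.67 to 2.12 CPM in clone 2. All 5 fibroblast markers that could be tested, of 8, rose in both clones. The list summed to 31.0 to 36.8, 238.6 to 246.7 and 160.0 to 178.6 CPM in the same order. Little of these sums came from the collagen genes Col1a1 and Col1a2, which reached at most 3.35 and 2.20 CPM in a clone library. The fibroblast markers Lum and Thy1 were at 0 counts in all libraries, and Dcn in all clone 2 libraries. The 6 mammary epithelial markers summed to 5145 to 6116, 1118 to 1272 and 1492 to 1685 CPM. Of these 4 fell in both clones and Krt14 rose, to 9.45 to 10.9 CPM in clone 1 and 130.4 to 142.0 CPM in clone 2. Epcam had 147918 counts summed over the control, 7 over clone 1 and 0 over clone 2. The basal keratin genes Krt14 and Krt5 were low in the control, at 3.02 to 4.67 and 0.0618 to 0.159 CPM. Of 8 Schwann cell markers 7 were tested, of which 2 rose and 3 fell in both, with sums of 223.3 to 254.9, 511.7 to 529.9 and 376.5 to 379.7 CPM. Of 8 smooth muscle markers 6 were tested, of which 3 rose and 2 fell in both, with sums of 180.5 to 212.0, 166.0 to 176.8 and 167.2 to 182.0 CPM. The 5 endothelial markers summed to at most 0.108, 15.3 to 17.3 and 0.504 to 0.953 CPM. The fibroblast, Schwann cell and endothelial sums were each highest in clone 1 and lowest in the control. The Schwann cell order rested on Pmp22. Its counts per library were 1075 to 1393 in the control, 27720 to 32230 in clone 1 and 21691 to 24210 in clone 2. Mbp, Prx and Erbb3 were the Schwann cell markers that fell in both clones. Of the endothelial markers only Kdr was tested, with 4, 3448 and 114 counts summed over control, clone 1 and clone 2. The part of any of these markers in the members' differences was not tested.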

How the data were processed

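RNA sequencing measured 9 libraries of BG2 cells. The authors deposited raw gene counts, whole numbers with no normalization, 1 column per library; the submitters' processing notes name fastp, Subread and DESeq2 and the builds mm10 and GRCm38. No source used here gives the annotation or the strand setting used in counting. Of 24594 genes, 24570 had a symbol by Entrez ID; the 24 others held at most 0.202% of a library's counts and stayed in the fit.

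The counts were filtered with filterByExpr (minimum count 10), scaled by TMM and fitted with the quasi-likelihood test of edgeR 4.0.16 (R 4.3.3) as 1 factor of 3 groups, with Benjamini-Hochberg adjustment; a log2 difference has an SE of its size over the square root of F. The fit was tested on simulated counts. Folds against 0 counts are bounds against 3 counts over the group, and folds against 1 to 9 counts carry a 95% exact binomial interval. Without molecular identifiers 1 molecule can give several reads, whereas these limits treat each count as independent, so they may be too narrow even for counting error. Many low counts were even numbers, such as 2, 0 and 2 for Sgcd in the control. Whether each count is a separate molecule was not tested.

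The members, the gene lists and the rules were chosen with earlier results of these data known. Named were all members, both small lists of close relatives, up to 4 called genes of each other list with the largest mean log2 difference of the clones, the nearest tested gene on each side of a member and the 3 genes nearest in level to 3 members. Lama5, B3galnt2, Peg10 and the markers were named after their values were seen. A few list genes are not reported here by name, though the counts hold them. Lengths are from GENCODE on GRCm38 and promoters from RefSeq. Alternatives were other size factors, DESeq2 1.42.0, other filters, 2-group fits, a replicate block, a fold threshold and each library left out.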

Additional observations from a re-analysis of the deposited data

Results flagged for a closer look

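Some partner genes differed between the clones by a test of that difference. With glmTreat, which asks for a log2 difference beyond 1, 1186 of the 13928 genes tested (8.52%) differed between clone 2 and clone 1. The members were chosen with this contrast in view, so none is flagged here. Their calls under this threshold are counted in the next section as a description. Sntg2 differed by 5.17 from clone 1 to clone 2 (adjusted p 0.00462, edgeR), from 1 count in clone 1 to 54 counts in clone 2. Cav3 differed by -7.36 (adjusted p 0.00715, edgeR), a fitted value that is no bound, since clone 2 had 0 counts, and against 3 counts over the group it was at least 21.6-fold lower there. B3galnt2 was higher than control in clone 1 and lower in clone 2, with a log2 difference between the clones of -0.73 (edgeR quasi-likelihood test, adjusted p 8.78e-06). It lies on chromosome 13, where the median tested gene differed by -0.62 from clone 1 to clone 2. Against control, that chromosome's medians were 0.17 (clone 1) and -0.48 (clone 2). What part of the B3galnt2 difference the chromosome carries was not tested. Each clone is 1 line, so these values describe 2 clones, not a property of Sox10 loss.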

How the results depend on the processing

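Over 18 alternatives, 354 of 377 values of the members' log2 differences kept their direction and their side of the threshold, 20 kept the direction but lost the call, 3 gained it and 0 reversed. Asking for a log2 difference beyond 1 (glmTreat) left 4 of 7 members called in clone 1 against control (25.7% of all genes), 2 in clone 2 (24.3%) and 2 between the clones (8.52%). For the pathway genes it left 20 of 43 called in clone 1, 17 of 40 in clone 2 and 3 of 33 between the clones. Fewer calls follow from that threshold itself. Leaving out 1 library at a time gave 6 to 7 members called in clone 1, 5 to 6 in clone 2 and 5 to 6 between the clones, and 39 to 43, 37 to 40 and 26 to 35 pathway genes. The labels do not say that a library's number marks a pairing. Deviations from the group means correlated at 0.0143 to 0.249 between libraries of the same number and at -0.212 to 0.134 between others, and not every same-number value was over 0.1, so the numbers were not used to pair. Between the libraries numbered 1 the values were 0.214 to 0.249, and between them and other numbers -0.212 to -0.0483. Those libraries thus shared a deviation across the groups, which the main fit does not model. With the replicate block, 7, 6 and 6 members and 44, 41 and 40 pathway genes were called, with Dag1 in clone 1 gained at -0.12. Dag1 in clone 1 was also called without control replicate 1 (-0.19). Leaving out the libraries numbered 1 of every group, an alternative chosen after seeing the data, gave 7, 6 and 6 members and 45, 39 and 36 pathway genes. For this fit, the replicate block and the fits without 1 library, the share of all genes called is not given here. The shares of the main fit do not apply to them, so nothing is read from these counts. The causes were not tested. Depth limits the values of Sgcd in the control, Dmd in the clones and Sgce throughout, which rest on 0 to 4 counts per group.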

Other observations

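After the levels of Dmd were seen, genes of its chromosome with the same fate were counted. Of 291 X-linked genes with at least 5 CPM in the control, 12 (4.12%) had at most 3 counts summed over each clone. Among them were Armcx3, Bcor, Dgkk, Dmd, L1cam, Lonrf3, Pir, Rnf128, Sytl5, Tmem47 and Tspan7. On the autosomes 77 of 9645 such genes (0.798%) did, between 0 and 2.15% on a single autosome. Genes are not independent replicates, each clone is 1 line, and the list was counted after its values were known, so no test is given.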
